A study of Mus musculus with 36 samples.

Results

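Trimethylation of lysine 4 on histone H3 (H3K4me3) was compared between mouse embryonic stem cells in serum and the same cells 24 h after transfer to 2i, using the peak list deposited for each condition. The cells were of the KH2 line, an established mouse embryonic stem cell line. In serum they grew in medium with 15% fetal bovine serum and LIF, a cytokine that keeps mouse embryonic stem cells undifferentiated, on irradiated CF1 mouse embryonic fibroblasts. In 2i they grew in medium with a pair of kinase inhibitors that block MEK and GSK3, also with LIF. The labels assign 2 samples to each H3K4me3 list, so 4 of the 36 samples of the series stand behind the comparison, and 2 more behind another list made after 3 passages in 2i. All 3 lists came from chromatin fixed with formaldehyde, sheared to 200 to 700 bp and precipitated with the same Millipore antibody. The peak names in the lists say that replicates were pooled before calling, so each condition gave 1 list, and no spread between replicates and no test of a difference could be had.

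Peaks on chromosomes 1 to 19 and X were used, 19284 in serum and 17435 at 24 h. Peaks of the 2 lists that overlapped by at least 1 bp were merged, which gave 20519 regions. The 12 lists used here, which include those of the transcription factors Nanog, Sox2 and Oct4, merge into 70176 regions. The 95% intervals given below are exact binomial intervals for shares and order-statistic intervals for medians. They cover sampling over regions within a pair of lists and not the spread between cultures.

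H3K4me3 is deposited by SET1 and MLL family methyltransferase complexes and lies in broad domains around the start sites of active genes and, in embryonic stem cells, at CpG-rich promoters of many silent developmental genes. Within such a domain the mark sits on nucleosomes, so a stretch without nucleosomes at the start site itself gives a dip between flanking maxima. Culture in 2i brings mouse embryonic stem cells to a more uniform state, termed the ground state, that resembles the early epiblast. Nanog, Sox2 and Oct4 form the core of the transcription factor circuit that maintains pluripotency.

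H3K4me3 peaks covered less of the genome at 24 h, while most regions held a peak in both lists. Of the 20519 regions, 14161 (69.0%) held a peak in both lists, 5072 (24.7%) only in serum and 1286 (6.27%) only at 24 h. Seen from each list, 73.6% (73.0 to 74.3) of the serum regions were called at 24 h and 91.7% (91.2 to 92.1) of the 24 h regions were called in serum. Serum peaks covered 32.8 Mb and 24 h peaks 23.0 Mb, a change of -9.84 Mb or -30.0% of the serum bases. The list of 3 passages lay between them at 27.7 Mb.

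The bases that left the peaks came mainly from the margins of regions that stayed called. Of the 11.0 Mb covered in serum and not at 24 h, 5.93 Mb (53.7%) lay at the edges of shared regions, 4.73 Mb (42.8%) in regions called only in serum, and 0.383 Mb (3.46%) in gaps that opened between 24 h peaks of one region. Bases covered at 24 h and not in serum came to 1.20 Mb, of which 0.656 Mb lay in regions called only at 24 h and 0.548 Mb in shared regions. Both lists had 21.8 Mb in common.

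The lists differ in their own limits. The lowest -log10 q of a peak was 10.5 in serum, 4.91 at 24 h and 14.3 at 3 passages, and the median fold enrichment over control, as the authors' peak caller gave it, was 12.6 in serum and 8.16 at 24 h. The 24 h list thus reached down to weaker calls and still covered the fewest bases. Read depth behind the lists is unknown, and the part of depth or antibody efficiency in the widths was not tested. Each list also holds fewer peaks than its numbering reaches, by a selection that no label describes. The part of that selection in missing calls and in gaps between peaks was not tested. The labels do not say whether feeder fibroblasts were also present in 2i, and the part of feeder chromatin in the serum list was not tested. Folds and q values are used below to rank or describe peaks within a list.

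The merging rule decided few regions. Only 2 shared regions rested on an overlap of 1 to 50 bp, the shortest being 8 bp, and their median folds were 5.23 in serum and 6.59 at 24 h. On the other side of the rule, 14 regions only in serum and 13 only at 24 h lay within 50 bp of a peak of the other list, with median folds of 6.40 and 4.22.

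At shared regions the mark covered less sequence in most cases. The covered width of a region is the number of its bases under peaks of one list. Its median was 1807 bp (1789 to 1823) in serum and 1397 bp (1378 to 1418) at 24 h, and the median ratio of 24 h to serum width was 0.812 (0.808 to 0.816), or -0.30 (-0.31 to -0.29) on the log2 scale. The mark was narrower at 24 h in 12595 regions (88.9%), wider in 1552 (11.0%) and equal in 14. It kept within 10% of its serum width in 27.1% of shared regions. A fall to under 50% of the serum width was seen in 1433 regions (10.1%), against 9 regions (0.0636%) that grew to over 2 times that width.

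**Figure D1:**
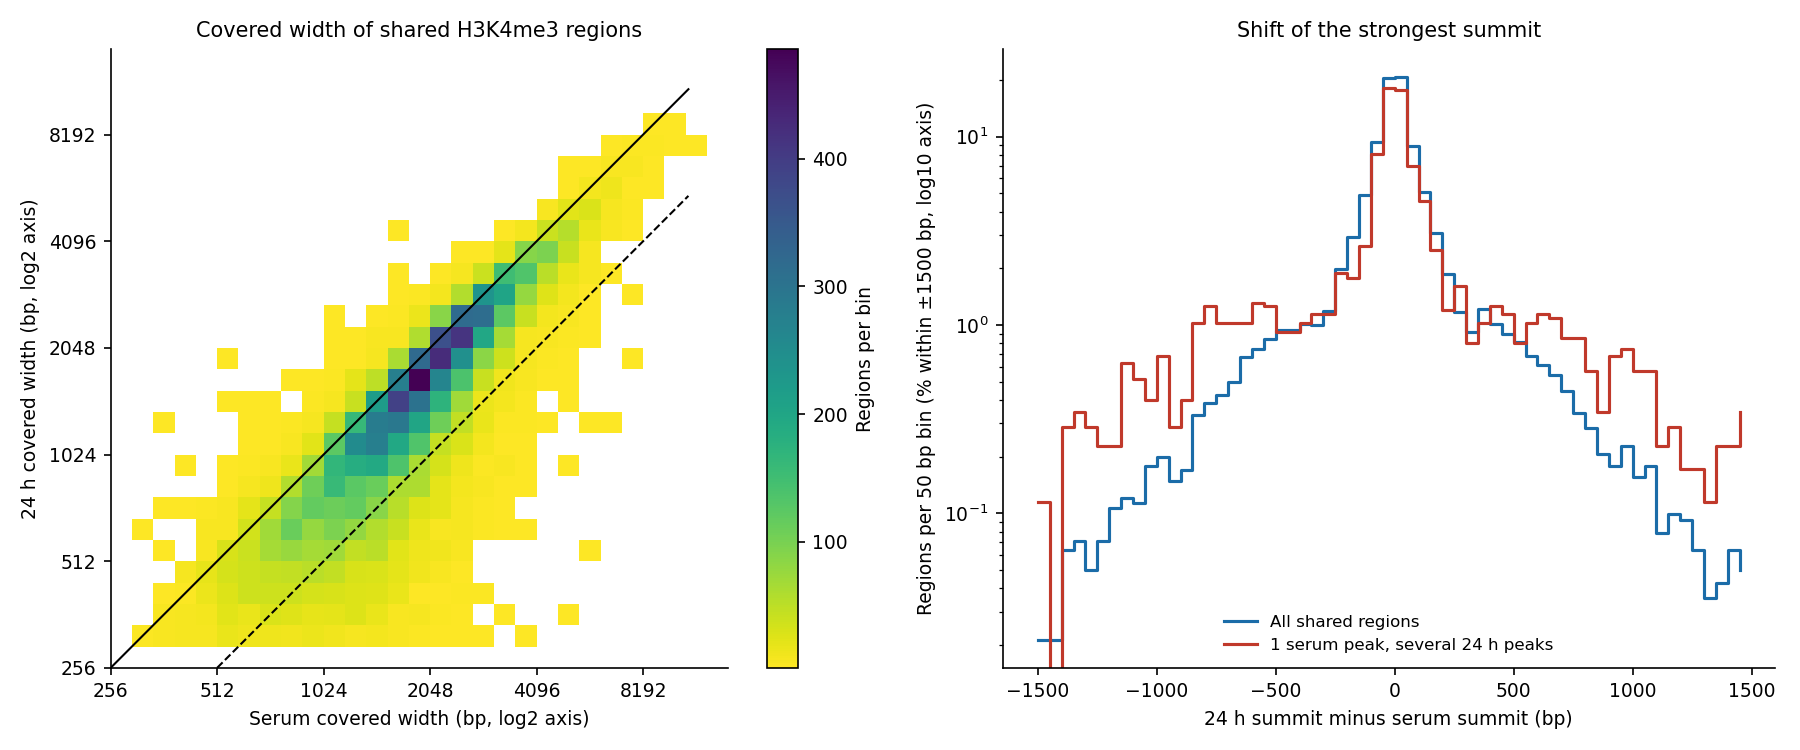
Left, covered width at 24 h against covered width in serum for the shared H3K4me3 regions, in bp on log2 axes, with colour for the number of regions per bin; the solid line marks equal width and the dashed line 50% of the serum width. Most regions lie between the lines, and the median ratio was 0.812. Right, distance from the serum summit to the 24 h summit in bins of 50 bp, on a log10 axis, for all shared regions and for the 1804 regions with 1 serum peak and several 24 h peaks; the split regions have more summits beyond 500 bp on both sides.

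Where each list had 1 peak, the 24 h peak mostly lay inside the serum peak. Among the 12306 regions with 1 peak in each list, the median width went from 1699 bp to 1289 bp, and the left and the right edge each moved inwards by a median of 122 bp. Left and right are by genome coordinate and not by the direction of a gene. The 24 h peak lay wholly inside the serum peak in 68.9% (68.1 to 69.7) of these regions and the serum peak inside the 24 h peak in 3.75%. Both edges moved inwards by over 50 bp in 47.0%, and both stayed within 50 bp of their serum place in 6.00%. A withdrawal from a single side, with one edge over 200 bp inwards and the other within 50 bp, was found in 1941 regions (15.8%). In those, the summit moved away from the withdrawn edge in 57.1% (54.9 to 59.4) and towards it in 41.8%.

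Among regions still called at 24 h, the length withdrawn was much the same at weak and strong regions, so that weak regions lost the larger share. The 5072 regions called only in serum were mostly weak and lost their whole width, and they are not in these groups. Shared regions were divided into 5 equal groups by their serum fold. From the weakest to the strongest group, the median number of bases lost was 333, 368, 316.5, 305 and 308 bp. The median width ratio over the same groups was 0.688, 0.744, 0.823, 0.852 and 0.878, and the median serum width was 1104, 1541, 1842, 2111 and 2489 bp. Divided by serum width instead, the narrowest group kept 0.765 of its width and the widest 0.852, with median losses of 204 and 501 bp.

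After 3 passages the mark was wider again, though not back to serum width. In the 13302 regions called in all 3 lists the median width was 1854 bp in serum, 1463 bp at 24 h and 1660 bp at 3 passages. The width at 3 passages was above that at 24 h in 72.0% of them and below that in serum in 68.1%. Regions that had fallen to under 50% of their serum width had medians of 1547 bp in serum and 577 bp at 24 h, and 1067 bp at 3 passages in the 79.2% that were called there. Regions wider at 24 h had medians of 1791, 1959 and 1932 bp in the same order. These comparisons share the serum and the 24 h lists. The fallen and the widened regions were chosen by their 24 h width relative to serum. Such a choice favours a width at 3 passages nearer to serum, and its part was not tested.

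The regions of lowest width ratio were broad serum domains of which only a fragment was still called. Their breadth follows from the choice, since no 24 h peak was shorter than 297 bp and a very low ratio needs a wide serum peak. Broad domains did not narrow most as a set. The 1433 shared regions of lowest width ratio had a median serum width of 1547 bp, against 1847 bp for the other 11176 regions that did not widen. The latter include the 14 of equal width. On mm9, the region chr8:44381477-44386255 was covered over 4779 bp in serum, 379 bp at 24 h and 4601 bp in 3 peaks at 3 passages. The region chr7:28109948-28115739 went from 5792 bp to 514 bp and then 1725 bp in 3 peaks, with Nanog peaks of serum and of 24 h within it. The region chr13:73481543-73485136 went from 3594 bp to 324 bp and then 1889 bp, with peaks of Nanog and Sox2 of every condition and of Oct4 at 24 h. At chr3:135184750-135187839 the width fell from 3090 bp to 304 bp and was 3201 bp at 3 passages. In all 4 the 24 h width was the smallest of the 3 lists. The choice by lowest ratio set it below the serum width and favoured a larger width at 3 passages. Which genes these domains belong to was not analysed here, since no annotation of the mm9 build was at hand.

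The 3 regions that widened most had short serum peaks, and the next had a longer one. The region chr12:105615572-105617492 grew from 524 bp to 1921 bp and had no peak at 3 passages. The region chr13:62282993-62284218 grew from 374 bp to 1226 bp and was back at 471 bp at 3 passages. At chr18:20922118-20923652 the width rose from 527 bp through 1477 bp to 3447 bp. The next, chr2:70312372-70316737, grew from 1738 bp to 4366 bp and had no peak at 3 passages, and chr6:128714445-128715378 went from 410 bp through 934 bp to 958 bp. By 3 passages these 5 regions had thus lost the peak, returned towards the serum width or stayed wide.

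Nanog and Sox2 peaks of 24 h were about as frequent at regions that narrowed as at those that widened. Oct4 peaks, and Sox2 peaks of 3 passages, were more frequent at regions under 50% of their serum width than at the other regions that did not widen. Nanog peaks of 24 h overlapped 25.2% (23.0 to 27.5) of the regions under 50% of their serum width. They overlapped 28.1% (27.3 to 28.9) of the other regions that did not widen and 28.9% (26.7 to 31.3) of the widened ones. The same shares for Sox2 at 24 h were 7.26%, 6.12% and 6.83%, with overlapping intervals. Over all 20519 regions, Nanog at 24 h was found in 23.6% and Sox2 at 24 h in 5.89%. For Oct4 in serum, regions under 50% of their serum width stood at 5.23% (4.14 to 6.52). The other regions that did not widen stood at 3.39% (3.06 to 3.74) and the widened ones at 3.61%, against 3.39% of all regions. In the same order, Oct4 at 24 h stood at 5.51% (4.39 to 6.82), 3.86% (3.51 to 4.23) and 4.64%, against 3.84% of all regions. Sox2 at 3 passages stood at 5.58% (4.45 to 6.90), 3.97% (3.62 to 4.35) and 3.93%, against 3.92%. For each of these lists the interval of the widened regions overlapped that of the first group.

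Splitting of a serum peak was more frequent than its reverse. A single serum peak was replaced by several 24 h peaks in 1804 shared regions (12.7%), and the reverse was found in 34 (0.240%). Of the split regions, 1650 held 2 peaks at 24 h, 144 held 3 and 10 held 4 or more, and the most in a region was 5. A further 17 regions held 2 serum peaks and at least as many at 24 h. At the larger of the 2 lists' lowest -log10 q, which removes the weaker 24 h fragments, 1048 split regions remained against 38 of the reverse kind. With peaks up to 1000 bp apart joined, the counts were 1755 and 402, so the size of the difference depends on how peaks are joined into regions.

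Split regions were broad domains with short gaps away from their edges. A split needs a 24 h peak on each side of the gap, and no 24 h peak was shorter than 297 bp. Narrow serum peaks could thus hardly split, and gap centres were kept from the edges. Their median width was 2641 bp (2580 to 2686) in serum and 2120 bp at 24 h, against 1699 and 1289 bp where both lists had 1 peak. From the narrowest to the widest of 5 equal groups by serum width, 0.635%, 4.27%, 9.89%, 16.7% and 32.2% of the regions were split. The 1969 gaps had a median length of 143 bp (137 to 147), 68.5% were under 200 bp and the longest was 2114 bp. No 2 peaks of either list lay closer than 51 bp. The gap centre fell in the middle 50% of the serum peak in 79.5% (77.7 to 81.3) of cases. The serum summit lay in a gap in 6 of 1804 regions (0.333%), and the largest 24 h peak held a median of 64.9% of the covered bases.

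Splitting was found again in the list of 3 passages. Of the 1804 split regions, 761 (42.2%, 39.9 to 44.5) held several peaks at 3 passages, 1015 held 1 peak and 28 none. Of the 12306 regions with 1 peak in serum and at 24 h, 507 (4.12%, 3.78 to 4.49) held several at 3 passages. The median width of the split regions at 3 passages was 2337 bp, between the serum and the 24 h value. The part of width in this contrast was not tested.

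The most split regions show the pattern at single loci. The region chr18:47525513-47530775 had 1 serum peak of 5263 bp, 5 peaks at 24 h that covered 2682 bp, and 1 peak of 899 bp at 3 passages. The region chr3:34546883-34554889 had 1 serum peak of 8007 bp, 4 peaks at 24 h and 2 at 3 passages, and held peaks of all 3 factors in every condition listed for them. Its rank by fold among shared regions went from 270 to 36, and its summit moved by 73 bp. The region chr19:4803314-4812781 had 1 serum peak of 9468 bp and 4 peaks both at 24 h and at 3 passages. The region chr10:98723037-98729973 had 1, 4 and 3 peaks, and its rank fell from 559 to 5711 as its width went from 6937 to 4166 bp. The region chr2:122200698-122204428 had 1, 4 and 2 peaks, with Nanog peaks of 24 h and of 3 passages.

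**Figure D2:**
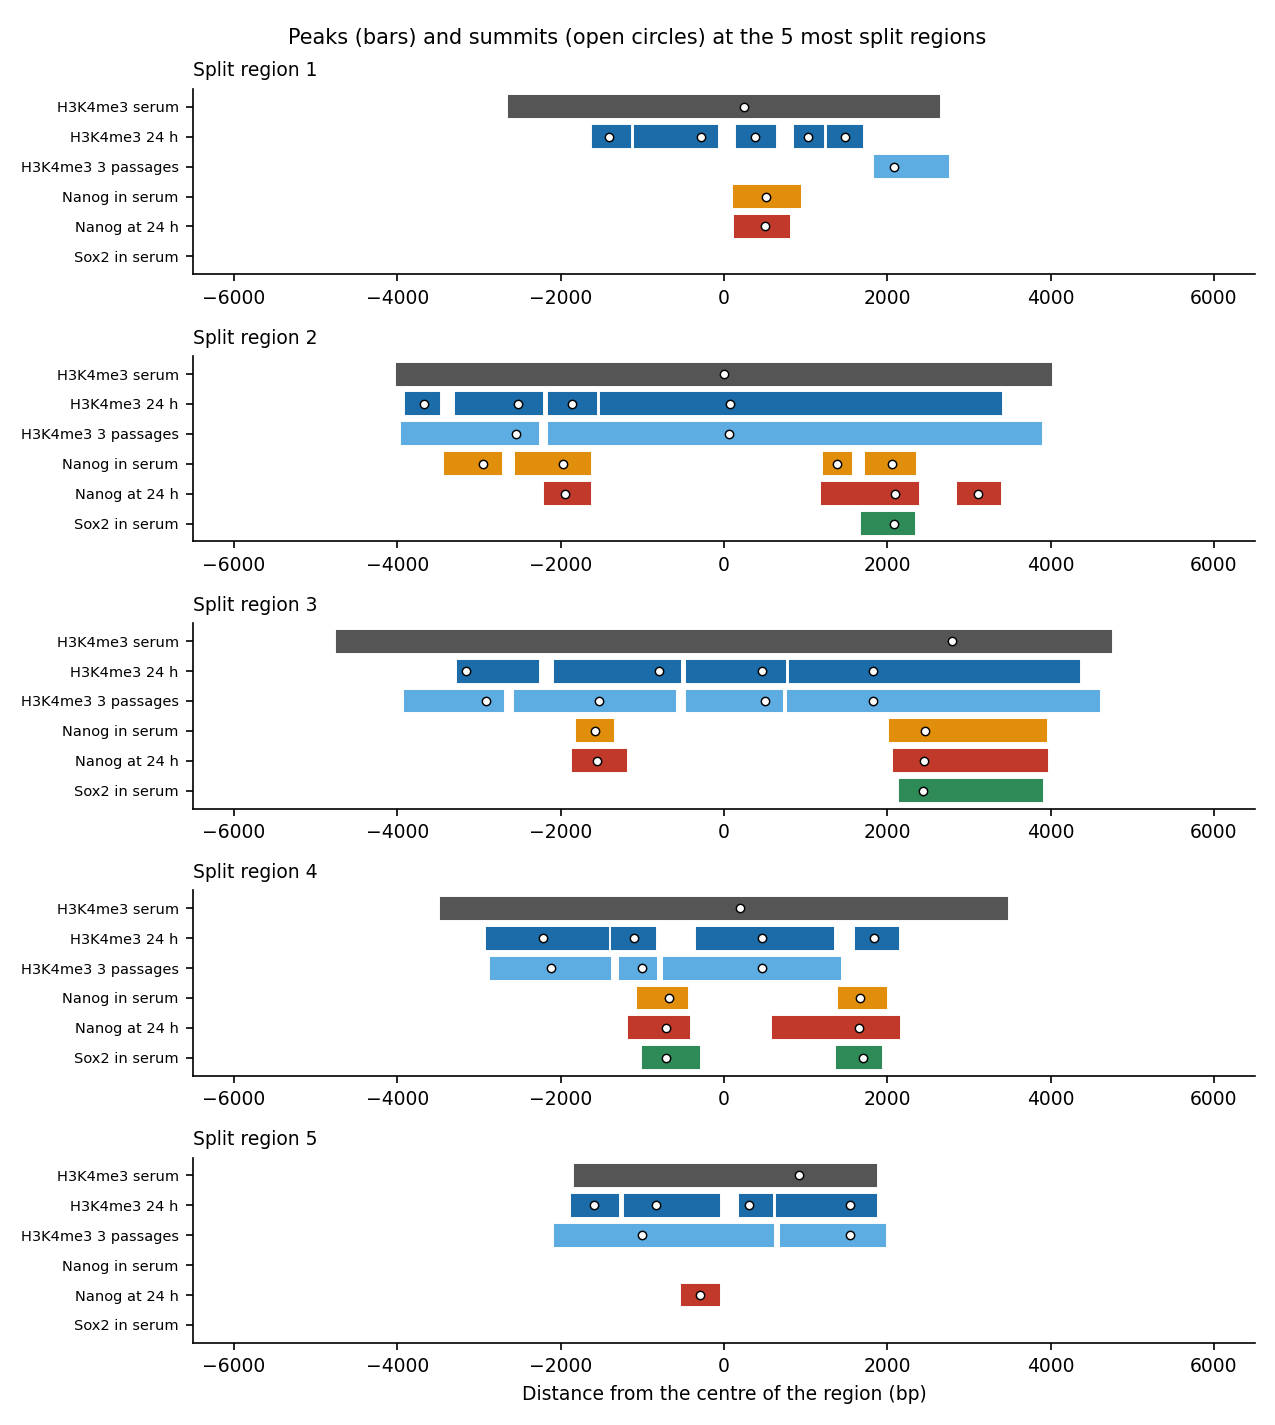
Peaks as bars and summits as open circles at the 5 shared regions with the most 24 h peaks, drawn against distance from the region's centre in bp, for the 3 H3K4me3 lists, Nanog in serum, Nanog at 24 h and Sox2 in serum. From top to bottom the regions have 5, 4, 4, 4 and 4 peaks at 24 h where serum had 1. In the region with 1, 4 and 3 H3K4me3 peaks, the summits of a Nanog peak and a Sox2 peak of serum fall in the gap left of the centre.

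Summits of Nanog and Sox2 were denser in the gaps than in the H3K4me3 fragments beside them. Nanog summits of 24 h occurred at 403 per Mb (341 to 472, exact Poisson interval) in the gaps, at 124 per Mb (114 to 135) in the 24 h peaks of the same regions, and at 113 per Mb (97.8 to 130) in windows of 144 bp at the middle of serum peaks that did not split. Nanog summits of serum stood at 229 per Mb (183 to 283), 73.7 and 73.9, and those of 3 passages at 129 per Mb (95.4 to 171), 59.9 and 55.9. For Sox2 in serum the densities were 118 per Mb (86.4 to 159), 47.0 and 42.3. The serum lists of Nanog and Sox2 thus had more summits per base at the places where the mark opened at 24 h. These intervals cover counting error only, and the gaps together spanned 379.9 kb.

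The other factor lists had few summits in the gaps. Sox2 at 24 h had 18 summits there, at 47.4 per Mb (28.1 to 74.9) against 26.7 (22.0 to 32.0) in the fragments, and its intervals overlapped. Sox2 at 3 passages, whose peaks overlapped 3.92% of all regions, had 15 summits in the gaps, at 39.5 per Mb (22.1 to 65.1). This stood against 15.7 (12.1 to 19.9) in the fragments. In the middle of serum peaks that did not split it had 19.2 (13.3 to 26.8), an interval that overlapped that of the gaps. A second lot of the Nanog antibody, used at 24 h, gave 34.2 per Mb (18.2 to 58.5) from 13 summits, against 30.6 in the fragments, so the contrast of the first lot at 24 h was not found with it. Oct4 had 4 summits in the gaps in serum and 5 at 24 h, or 10.5 and 13.2 per Mb, against 15.7 and 17.8 in the fragments. Counted by gap, 395 of 1969 (20.1%, 18.3 to 21.9) overlapped a Nanog peak of 24 h and 49 (2.49%) one of the second lot, so most gaps held none.

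**Figure D3:**
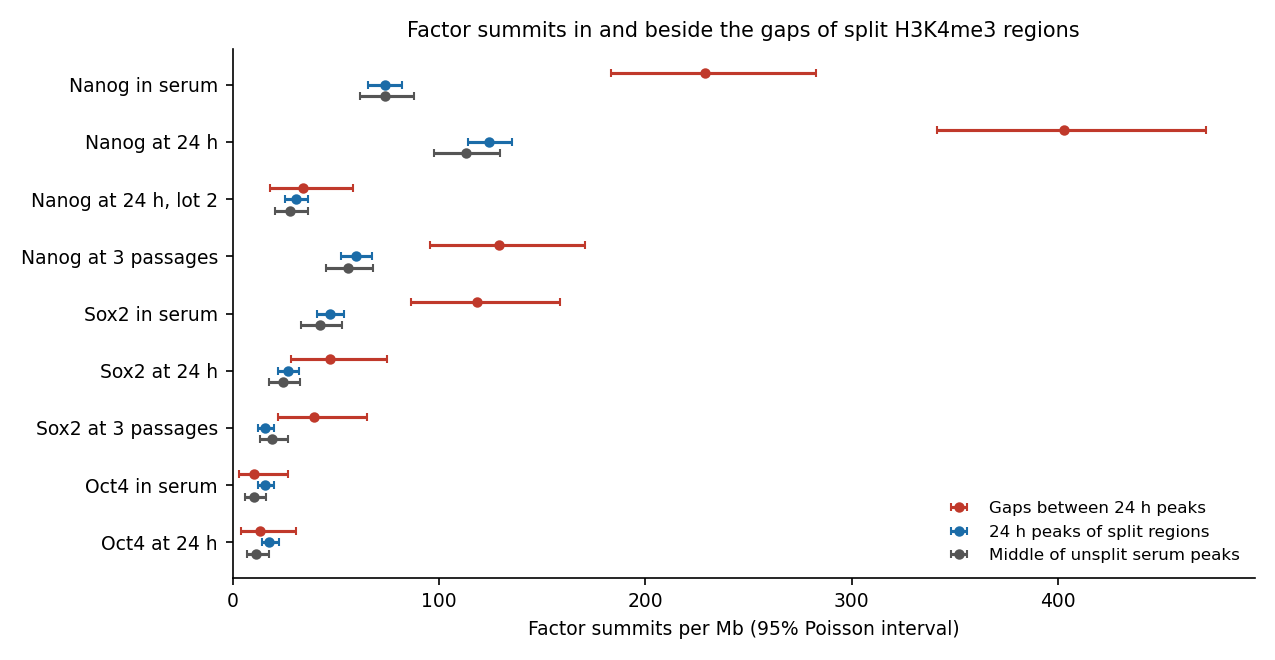
Factor summits per Mb with 95% Poisson intervals for the 9 factor lists, in the gaps between 24 h H3K4me3 peaks, in the 24 h peaks of the same regions and in the middle of serum peaks that did not split. For Nanog in serum, at 24 h with the first lot and at 3 passages, and for Sox2 in serum and at 3 passages, the interval of the gaps lies above that of the fragments. For Sox2 at 3 passages it overlaps that of the middle of serum peaks that did not split.

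The place of strongest signal mostly stayed where it was. The distance between the summits of the strongest serum and the strongest 24 h peak of a shared region had a median of 71 bp (69 to 73), was at most 50 bp in 41.1% of regions and at most 200 bp in 75.04%. There was no preferred direction along the chromosome, with a median signed shift of 0 bp. The chromatin had been sheared to 200 to 700 bp, so the median shift was shorter than a fragment.

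A minority of summits moved further than 500 bp, 1553 of 14161 (11.0%), and 322 (2.27%) moved over 1000 bp. The share over 500 bp was 0.918% in the narrowest and 25.4% in the widest of the 5 groups by serum width. Among regions with 1 peak in each list, 1073 had summits over 500 bp apart. In 92.1% (90.3 to 93.6) of these the serum summit was still inside the 24 h peak.

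The summits of 3 passages were nearer to those of 24 h. Of the 1073 regions, 1034 had a peak at 3 passages, and its summit was nearer the 24 h summit in 65.6% (62.6 to 68.5) and nearer the serum summit in 34.4%. It lay within 100 bp of the 24 h summit in 52.1% and of the serum summit in 21.2%. Where the serum and 24 h summits were at most 100 bp apart, these shares were 77.4% and 77.2%. Each pair of lists on its own gave a median summit distance of 71 bp for serum and 24 h, 75 bp for serum and 3 passages, and 44 bp for 24 h and 3 passages, pairs that share lists.

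The regions with the largest shifts went both ways at 3 passages. In chr7:28109948-28115739, the region that kept 514 of 5792 bp, the summit moved by 4283 bp and lay 59 bp from the 24 h place at 3 passages. In chr7:103357842-103363128 it moved by 2721 bp within a domain of 3868 bp at 24 h and was back within 159 bp of the serum place at 3 passages. In chr11:69616064-69619392 it moved by 2691 bp and lay 24 bp from the 24 h place at 3 passages. In chr3:128916651-128920082 it moved by 2671 bp while the width stayed at 3363 and 3319 bp, and it was 17 bp from the serum place at 3 passages. Moved summits went with Nanog peaks of 24 h in 32.4% (29.6 to 35.3) of the 1073 regions, against 25.4% (24.4 to 26.4) of those with summits at most 100 bp apart; the former had a median serum width of 2443 bp and the latter of 1588 bp.

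The order of the regions by strength was kept broadly, and the sets of strongest regions overlapped in part. Whether ranks changed more at the top than elsewhere was not tested. Shared regions were ranked by the fold of their strongest peak within each list. Across the 14161 regions, which share libraries within a list and are not independent, Spearman's rho was 0.81 for fold, 0.87 for -log10 q and 0.87 for covered width, given as descriptions. The median change of rank was 10.3 percentage points, and 49.1% of the regions stayed within 10 points. Of the 100 strongest serum regions 38 were among the 100 strongest at 24 h, and of the 1000 strongest 509 were. By width, 71 of the widest 100 and 760 of the widest 1000 kept their place.

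Rank rose by over 20 points in 1730 regions (12.2%) and fell by over 20 points in 1752 (12.4%). Of these, 1720 and 1747 moved in the same direction by -log10 q, and 1043 and 1016 moved by over 20 points by both measures. Regions that fell also narrowed most, to a median of 0.737 (0.724 to 0.748) of the serum width, against 0.811 (0.806 to 0.814) for those within 20 points and 0.884 (0.872 to 0.893) for those that rose. Their serum widths were alike, with medians of 1862, 1787 and 1870 bp. Fold and width come from the same peaks, so these measures are not independent.

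Factor peaks were more frequent where the mark rose in rank. Nanog peaks of 24 h overlapped 32.1% (29.9 to 34.3) of the regions that rose, 28.2% (27.3 to 29.1) of those within 20 points and 21.9% (19.9 to 23.9) of those that fell. Sox2 peaks of 24 h overlapped 9.48% (8.14 to 11.0), 6.15% and 4.17% (3.28 to 5.21), and Oct4 peaks of 24 h 6.76% (5.62 to 8.05), 3.90% and 2.74% (2.03 to 3.62). The serum lists gave the same order, with 20.2%, 16.2% and 12.4% for Nanog, 13.7%, 10.4% and 7.13% for Sox2, and 5.20%, 3.55% and 2.34% for Oct4. Over all 20519 regions the serum shares were 14.3% for Nanog, 9.33% for Sox2 and 3.39% for Oct4, and Oct4 at 24 h was found in 3.84%. Ranked by -log10 q instead, Nanog at 24 h was found in 32.2% of regions that rose and 23.6% of those that fell, and Sox2 at 24 h in 11.9% and 4.24%.

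The order was checked at like overall strength, since factor peaks also vary with strength. Regions were divided into 5 equal groups by the mean of their serum and 24 h ranks. In the middle group Nanog at 24 h was found in 36.7% (184 of 502) of regions that rose and 19.04% (103 of 541) of those that fell. In the groups next to it on the weaker and the stronger side, the pairs of shares were 29.0% and 16.4%, and 31.7% and 29.0%. In the strongest group, with 125 and 137 such regions, the order turned, at 29.6% and 31.4%, and in the weakest it was 29.5% and 18.4%. For Sox2 at 24 h the share was higher among regions that rose in all 5 groups.

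**Figure D4:**
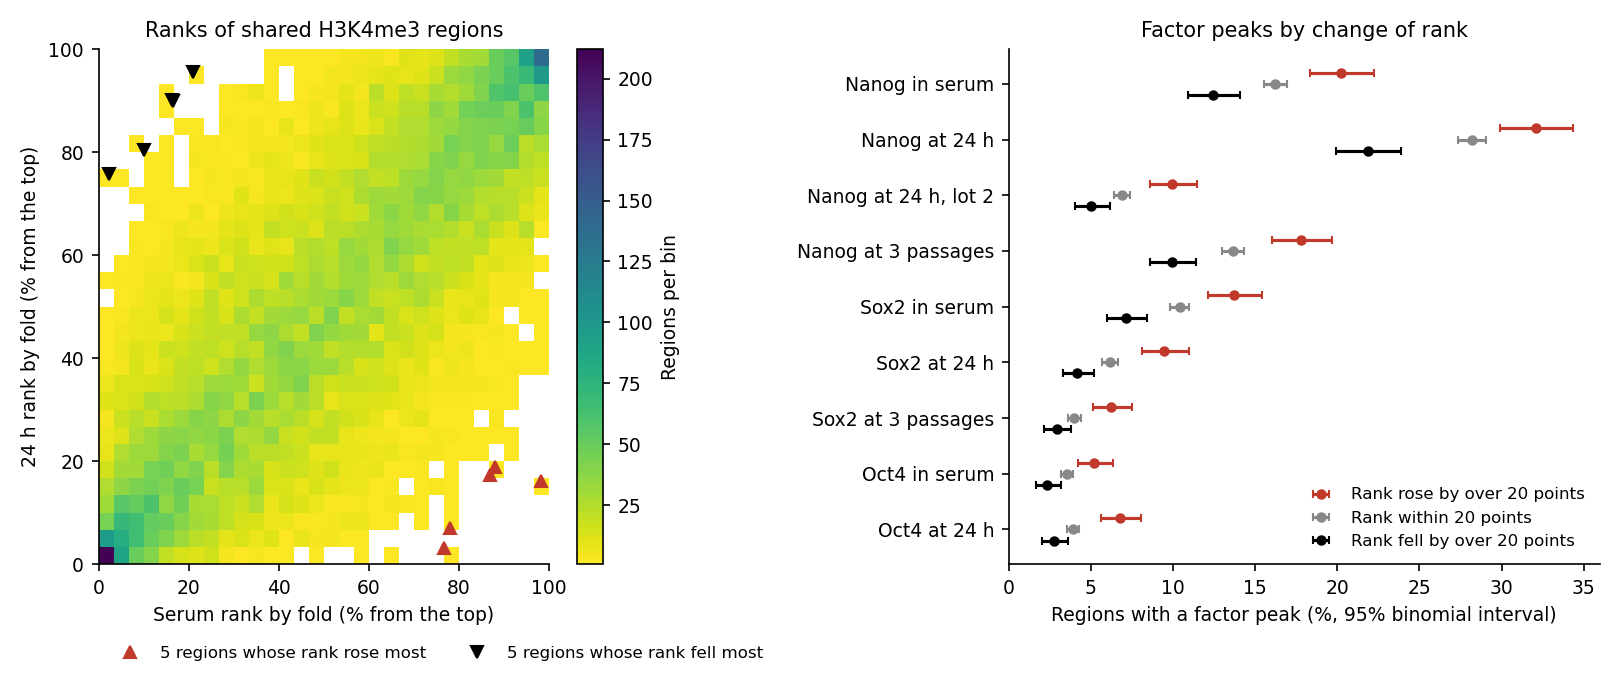
Left, rank at 24 h against rank in serum of the 14161 shared regions by fold, in percent from the top, with colour for regions per bin and markers for the 5 regions that rose and the 5 that fell most. Right, share of regions with a peak of each factor list, with 95% binomial intervals, for regions whose rank rose by over 20 points, stayed within 20 points or fell by over 20 points. In all 9 lists the share is highest among regions that rose and lowest among those that fell.

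The list of 3 passages, which played no part in choosing regions by change of rank, placed those it called nearer to 24 h than to serum. It called 1667 of the 1752 regions that fell and 1681 of the 1730 that rose. Among regions called in all 3 lists, those that fell had median positions of 33.5% from the top in serum, 68.5% at 24 h and 61.0% at 3 passages. Those that rose stood at 68.5%, 34.7% and 41.5%. Regions within 20 points stayed at 49.0%, 48.7% and 49.1%.

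Single regions moved through most of the ranking. The region chr9:35112568-35113332 went from rank 13903 to rank 2296 with widths of 727 and 765 bp, and was at rank 2510 at 3 passages. It held Nanog and Sox2 peaks of 24 h and of 3 passages and Oct4 peaks of serum and 24 h. Its serum fold of 4.88 went with a -log10 q of 91.5, far above that of other serum peaks of low fold, whose median over regions called only in serum was 17.2. The region chr13:23398104-23402336 rose from rank 10860 to 437 with no factor peak, and chr3:128916651-128920082 rose from 12464 to 2658 and stood at 13118 after 3 passages. In the other direction, chr3:88962915-88964468 fell from rank 2982 to 13524, and chr14:70749281-70751904 from 331 to 10722 as its single peak of 2624 bp became 2 peaks of 1282 bp in all. The latter held peaks of all 9 factor lists, so a fall in rank was also found where every factor list had a peak.

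Regions called in one list only were weak and narrow members of that list. The 5072 regions only in serum had a median width of 845.5 bp, a median serum fold of 6.26 and a median -log10 q of 17.2, and 8 of them were in the top 25% of the serum list by fold. The 1286 regions only at 24 h had a median width of 441 bp, a fold of 4.74 and a -log10 q of 6.13, and 2 were in the top 25% of the 24 h list. By the merging rule each such region held a single peak, since peaks of the same list did not overlap. Of the regions only at 24 h, 1170 (91.0%) had a -log10 q below the lowest of the serum list, against 15.9% of the 24 h peaks at shared regions. At a common lower limit of -log10 q, 116 regions only at 24 h were left of the 1286.

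As listed, lost and gained regions were called at 3 passages in like shares, but the lists had unlike limits. The lowest -log10 q was 10.5 in serum, 4.91 at 24 h and 14.3 at 3 passages. The share was 27.01% (25.8 to 28.3) of the regions only in serum and 27.1% (24.7 to 29.7) of those only at 24 h, against 93.9% of shared regions and 73.2% of all 20519. Among the 116 regions only at 24 h above the common limit it was 62.9% (53.5 to 71.7). The share of regions only in serum at that limit is not given here, so the likeness holds for the lists as deposited. Of the regions only at 24 h, 211 (16.4%) lay within 1000 bp of a shared region, and 44.1% (37.3 to 51.1) of those were called at 3 passages, against 23.8% (21.3 to 26.5) of the others. Among regions only in serum, 463 (9.13%) lay that close.

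The strongest lost and gained regions were exceptions. Whether the peak missing from the other list was left out by the undescribed selection of deposited peaks was not tested. Among regions only in serum, chr11:4846272-4848550 had a fold of 35.8 over 2279 bp and was called at 3 passages over 995 bp. The region chr19:5796158-5803666 covered 7509 bp with a fold of 28.8, had no peak at 24 h or at 3 passages, and lay 98 bp from a shared region; it held peaks of Nanog and Sox2. Among regions only at 24 h, the strongest 2 were neighbours, chr7:52380221-52384263 of 4043 bp and chr7:52377708-52379847 of 2140 bp, with folds of 24.5 and 20.3. Both were called at 3 passages, over 4193 and 2184 bp, and held Nanog peaks of 24 h and of 3 passages. The next 3 by fold, chrX:106290072-106291608, chr16:94981649-94982454 and chr11:93905598-93906560, had folds of 11.0, 10.9 and 9.62, and all were also called at 3 passages.

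Factor peaks were rarer at lost than at gained regions. By overlap, Nanog of 24 h was found at 13.1% (12.2 to 14.1) of regions only in serum and 17.2% (15.2 to 19.4) of those only at 24 h, against 27.9% (27.1 to 28.6) of shared regions. Sox2 of 24 h was found at 3.75% (3.24 to 4.31), 9.72% (8.16 to 11.5) and 6.31%, and Oct4 of 24 h at 2.39% (1.98 to 2.84), 6.53% (5.24 to 8.02) and 4.11%. The share at regions only at 24 h was above that at regions only in serum for all 9 factor lists and under each of the 7 settings compared. Most regions of each class held no factor peak of 24 h, 86.2% of those only in serum, 80.7% of those only at 24 h and 70.8% of shared regions. All 3 factors of 24 h were present at 1.58%, 4.74% and 2.67%.

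Widths differ between the classes, so the factors were also counted in a fixed window. Within 500 bp of the H3K4me3 summit, a Nanog summit of 24 h was found at 9.01% of regions only in serum, 14.8% of regions only at 24 h and 16.2% of shared regions. For the second Nanog lot, found by overlap at 6.70% of all regions, the shares were 2.48% (2.07 to 2.95), 9.95% (8.37 to 11.7) and 2.31%, for Sox2 of 24 h 2.74%, 8.94% (7.44 to 10.6) and 2.75%, and for Oct4 of 24 h 1.34%, 4.59% (3.51 to 5.88) and 1.56%. In this window, gained regions had the highest shares of these 3 lists. The serum lists gave 6.31%, 12.1% and 9.17% for Nanog, 4.57%, 7.78% and 5.55% for Sox2, and 1.26%, 4.04% and 1.45% for Oct4. In this window, regions gained by the mark at 24 h were thus more often near a factor summit of serum as well. Overlap at like width gave another order in part. Under 500 bp at 24 h, gained and shared regions had shares of 14.5% (12.2 to 17.1) and 22.3% (19.7 to 25.1) for Nanog of 24 h, 8.57% (6.77 to 10.7) and 7.47% (5.89 to 9.31) for Sox2, and 5.24% (3.83 to 6.97) and 6.02% for Oct4. At that width gained regions had the lower share for Nanog of the first lot, and for Sox2 and Oct4 the intervals overlapped. For the second lot the shares were 10.2% (8.27 to 12.5) and 7.99% (6.35 to 9.88), also with overlapping intervals. From 500 to under 1000 bp at 24 h, Sox2 was found at 10.2% (7.34 to 13.7) of gained and 5.07% (4.36 to 5.87) of shared regions. From 500 to under 1000 bp in serum, Sox2 of 24 h was found at 3.03% (2.43 to 3.73) of lost and 6.02% (4.93 to 7.27) of shared regions, and the second Nanog lot at 2.92% (2.33 to 3.61) and 6.80% (5.64 to 8.12). From 1000 to under 2000 bp in serum the order for the second lot turned, at 7.24% (6.03 to 8.62) and 4.53% (4.04 to 5.06). Sox2 of 24 h stood there at 4.71% and 4.50%, and Nanog of 24 h at 18.20% and 20.98%, each with overlapping intervals.

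**Figure D5:**
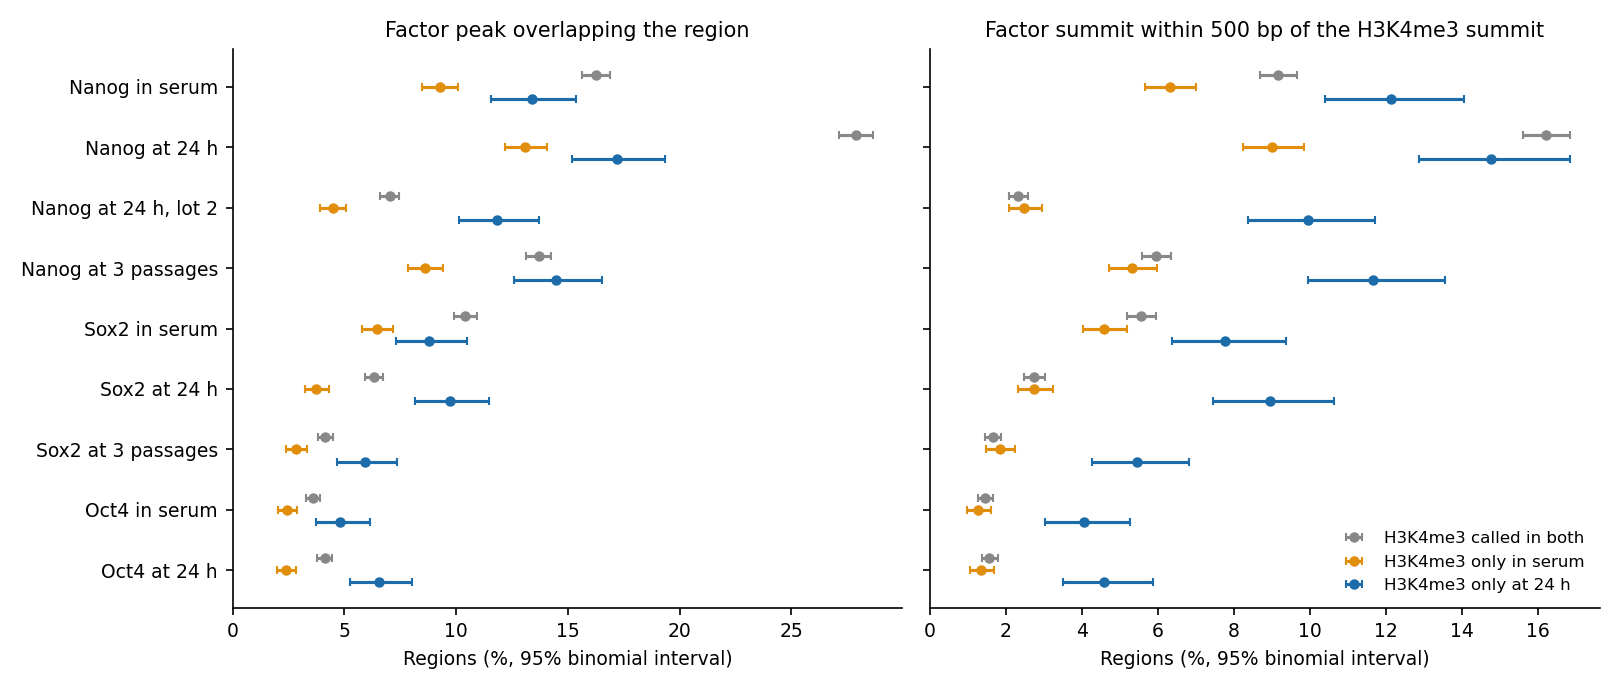
Share of shared, lost and gained H3K4me3 regions that hold a factor peak by overlap (left) or have a factor summit within 500 bp of the H3K4me3 summit (right), with 95% binomial intervals, for 9 factor lists. Regions only at 24 h lie above regions only in serum in every list in both panels.

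The turnover of Sox2 differed between lost and gained regions. Among regions only in serum, 3.27% held a Sox2 peak called in serum and not at 24 h, and 0.552% the reverse. Among regions only at 24 h the shares were 2.33% (1.58 to 3.31) and 3.27% (2.36 to 4.39), and among shared regions 5.32% and 1.24%. For Oct4 the shares of serum alone and of 24 h alone were 0.808% and 0.769% at regions only in serum, and 0.389% and 2.10% at regions only at 24 h. The factor lists differ in length, so these shares are compared between kinds of region and not between lists. The Nanog lists of lot 1 gave 1.26% and 5.09% at regions only in serum and 1.56% and 5.37% at regions only at 24 h, with no such contrast.

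Among regions only at 24 h, those of lowest fold most often held a Nanog peak of 24 h. In the lowest 25% by fold, with folds of 1.88 to 4.29, Nanog of 24 h was found at 31.1% (26.0 to 36.4) and 43.5% were called at 3 passages. In the next 2 groups of 25% the Nanog shares were 13.7% and 8.41%, and in the top group, with folds from 5.14 to 24.5, it was 15.5% with 32.3% called at 3 passages. The median width was 419 bp both in the lowest group and in the group with 8.41%. Regions only in serum showed a like pattern, at 22.6%, 11.7%, 9.23% and 8.83% from the lowest to the highest 25%.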

How the data were processed

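H3K4me3 peaks of KH2 cells in serum, at 24 h of 2i and after 3 passages were read from the lists the authors deposited, on mm9. Tools listed by the submitters' processing notes include MACS2, BWA 0.5.7 and Bowtie 0.12.7, with no role for any of them. The fold enrichment, a linear ratio over control, and the -log10 q of each peak are the authors' values, as deposited. The summit offset is the position the deposited lists give. Per the file headers and peak names, replicates were pooled; no label says whether the 2 samples of a condition came from separate cultures. The lists number peaks up to 37751 in serum and 41613 at 24 h but hold fewer, by a selection that no label or header describes.

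From these values, peaks on chromosomes 1 to 19 and X (25 serum and 32 24 h peaks left out) were merged at 1 bp overlap with Python 3.11.15, numpy 2.4.6, pandas 2.3.3 and scipy 1.17.1. Strongest peaks were chosen by fold, then -log10 q. Of the 14 lists of the series, 12 were used. The code was tested on simulated lists. Regions named are the first by rank, up to 5 a set: highest fold among regions of one list, extreme width ratio and summit distance among regions with 1 peak in each list, most peaks gained or lost, and largest change of rank. The members and lists were chosen with earlier results of these data known. Intervals cover counting only. Alternatives were a minimum -log10 q of 10, equal list lengths, a common lowest -log10 q, 50% overlap, joining within 1000 bp, chromosomes 1 to 19, other width and summit definitions and ranking by -log10 q.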

Additional observations from a re-analysis of the deposited data

How the results depend on the processing

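The main results kept their direction under the alternatives given here. Within groups by mean rank, the order for Nanog of 24 h turned in the strongest group, at 29.6% of regions that rose and 31.4% of those that fell. A minimum -log10 q of 10 left 128 regions only at 24 h, and the larger of the lists' lowest -log10 q left 116, against 1286. The median log2 width ratio of -0.30 became -0.27 under both, and -0.28 measured from first start to last end. Regions with 1 serum and several 24 h peaks numbered 1081 and 1048 against 1804. Joining peaks within 1000 bp gave 1755 such regions and 402 with several serum peaks and 1 at 24 h, against 34. The median summit distance of 71 bp became 68 bp with 1 peak in each list, 67 bp for the nearest pair of summits and 74 bp with joined peaks. Ranked by -log10 q, 1223 regions rose and 1155 fell by over 20 points, against 1730 and 1752. Other shares at changed regions moved beyond their interval in 19 of 20 cases under each -log10 q limit, in 3 at equal list length, in 2 with joined peaks and in 0 under 50% overlap or without chromosome X. No paired analysis was possible because each list pools its replicates, and for the same reason no replicate could be left out. Read depth is unknown and limits how far widths and one-list calls can be compared. Grouping by mean rank and the 500 bp window were chosen after seeing the data.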

Other observations

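At shared regions the mark was narrower at 24 h by the median width ratio of each of the 20 chromosomes, and the shares of regions called in one list differed between chromosomes. The median log2 width ratio at shared regions ranged from -0.26 (-0.28 to -0.22) on chromosome X to -0.37 (-0.41 to -0.34) on chromosome 15. The share of regions called only in serum ranged from 18.2% (15.2 to 21.6) on chromosome X to 29.7% (26.8 to 32.9) on chromosome 15, and the share only at 24 h from 4.00% (3.09 to 5.09) on chromosome 11 to 10.3% (8.47 to 12.4) on chromosome 3; on chromosome X it was 5.45%. These were the extremes of 20 chromosomes and were picked after their values were seen.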
